A study of Arabidopsis thaliana with 4 samples.

Results

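Transcripts of detoxification and redox enzymes were measured by 6 probe sets, out of 22746 plant probe sets on the Affymetrix ATH1 array, in Arabidopsis thaliana wild-type plants and php mutants. They are GSTU26, GSTU25, AER and MSRB9, together with a probe set taken as GSTU24 (AT1G17170) and a probe set taken as OPR1/OPR2 (AT1G76680). The platform annotation named 4 of the 6. The names GSTU24 and OPR1/OPR2 rest on the choice of members alone, since the annotation used here does not list those probe sets. The 6 were chosen with php against wild-type differences of these arrays in view, so their differences are given as a description, with no test.

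Both groups were aerial tissue of soil-grown plants at 14 days of age, one from wild-type plants and the other from plants with the php mutation, with 2 arrays each, called replicates I and II. Each array was made from 3 independently derived samples. The sources used here do not give the accession, the php allele or any treatment. PHP (PLANT HOMOLOGOUS TO PARAFIBROMIN) belongs to the PAF1 complex, a set of proteins that accompanies RNA polymerase II during elongation. Its transcript was not analysed here, so the mutated gene gives no check of the labels.

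Plants detoxify reactive and foreign compounds in steps. Reductases remove reactive double bonds and oxidised groups, glutathione S-transferases couple electrophilic compounds to glutathione, and the conjugates are moved to the vacuole. In leaves, these enzymes handle the aldehydes and enones formed from peroxidised membrane lipids, and many of their genes are induced by such compounds and by xenobiotics. Methionine sulfoxide reductases of the B type repair oxidised methionine in proteins.

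Levels are log2 values normalised with GCRMA, which estimates background from probe sequence, and a difference of 1 on this scale means 2-fold. Of the 6 probe sets, 5 lay above 2.64, the mean level below which the dimmest 30% of probe sets fall, and GSTU25 lay below it. Values of different probe sets are not compared with each other, since probe sets differ in brightness for the same amount of RNA. In RNA from whole tissue, fewer cells of a type and less RNA per cell cannot be told apart. The 4 arrays had median levels of 5.58 to 5.63. The 5 measured markers of green shoot tissue were at 9.17 to 14.55 on all arrays, and the 4 flower markers were at 1.98 to 2.67. Of the 2 root markers, EXPA7 was at 1.90 to 1.93, while PYK10, which seedling shoots also express, was at 11.67 and 11.87 in wild-type against 12.31 and 12.17 in php. PYK10 was thus higher on both php arrays, and its part in the differences below was not tested.

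The 6 enzymes showed 3 patterns. GSTU26 and AER were at least 2-fold lower in php, MSRB9 was at least 2-fold higher, and the other 3 differed by less than 0.2 log2 units. A mean difference of at least 2-fold was seen for 0.446% of the 15922 probe sets above the dim limit in the lower direction and for 0.628% in the higher direction, but the members were chosen on this contrast and nothing is read from that. Levels did not overlap between genotypes for 5 of the 6 members, against 70.4% of all plant probe sets with the dim ones included, and nothing is read from that count either. The sign was therefore not shared by the group, and within the tandem row of 3 glutathione S-transferase genes GSTU26 was the 1 gene measured well above the background floor.

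**Figure D1:**
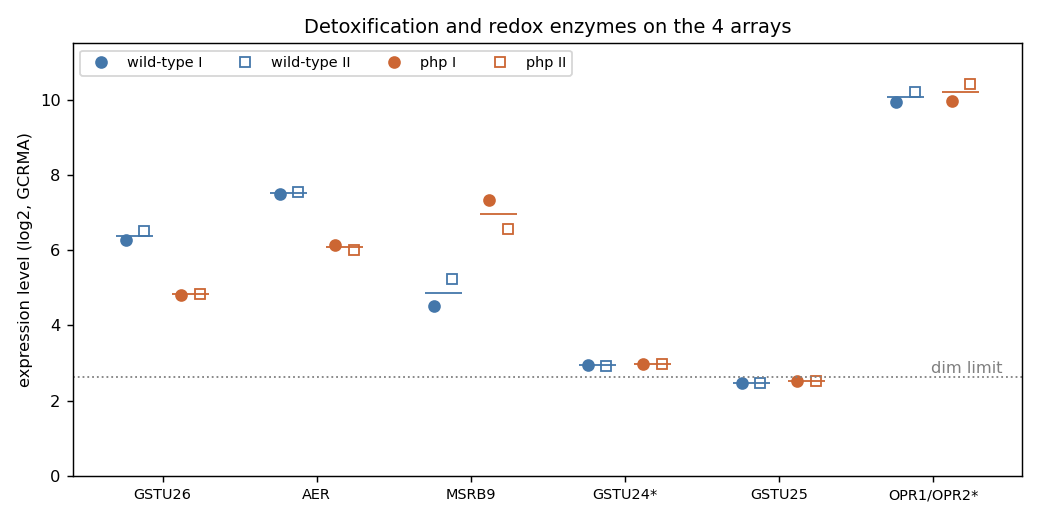
Level of each of the 6 probe sets on the 4 arrays (y axis, log2, GCRMA), with wild-type in blue and php in orange, replicate I as filled circles and replicate II as open squares. Short lines are means of 2 arrays the dotted line is the dim limit of 2.64, and an asterisk marks a name that rests on the choice of members. GSTU26 and AER sit lower on both php arrays, MSRB9 sits higher, and the other 3 are nearly level.

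Among the conjugating enzymes, GSTU26, a tau-class glutathione S-transferase, was at 6.27 and 6.51 on wild-type arrays I and II and at 4.82 and 4.84 on php arrays I and II. The groups did not overlap, and the nearest wild-type and php arrays lay 1.43 apart, against at most 0.24 between arrays of one genotype. The mean difference was -1.56, a 2.94-fold lower level in php. It was -1.45 between the arrays numbered I and -1.67 between those numbered II. Leaving out any 1 of the 4 arrays left the GSTU26 difference between -1.68 and -1.44. GSTU26 therefore varied little among arrays of one genotype, and the php arrays were almost equal.

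GSTU25, which stands directly beside GSTU26 in the TAIR10.1 gene order, was at the background floor on every array. Its levels were 2.47 and 2.47 in wild-type against 2.52 and 2.53 in php. The php arrays were the higher pair by 0.054, with no overlap, but such a separation was general at this level. Of the 6824 probe sets left out as dim, 93% were higher on both php arrays than on either wild-type array and 0.498% lower. Among 3896 probe sets within 0.25 log2 units of the mean level of GSTU25, the median difference was 0.055. The probe set taken as GSTU24, the next gene in the row, was at 2.96 and 2.93 in wild-type against 2.97 and 2.98 in php. That is a difference of 0.031, where 1300 probe sets of like level had a median difference of 0.11. With quantile normalisation of the arrays both signs turned, to -0.062 for GSTU24 and -0.0056 for GSTU25, so no direction is given for either. Neither probe set was bright enough on any of the 4 arrays to show a decrease of the size seen for GSTU26.

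AER, the NADPH-dependent alkenal reductase that reduces the double bond of reactive alkenals such as those from lipid peroxides, was at 7.49 and 7.54 in wild-type against 6.15 and 6.0 in php. All of its wild-type values were higher than its php values, and the nearest arrays of unlike genotype lay 1.34 apart, against at most 0.15 within a genotype. The mean difference of AER was -1.44, or 2.71-fold lower in php. It was -1.34 between the arrays numbered I and -1.53 between those numbered II, and stayed between -1.51 and -1.37 with 1 array left out. The differences of AER and GSTU26 were thus of nearly the same size, on both php arrays.

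MSRB9, a B-type methionine sulfoxide reductase, was at 4.50 and 5.22 in wild-type against 7.33 and 6.57 in php. Both php arrays were higher than both wild-type arrays, with 1.35 between the nearest of them. The mean difference was 2.09, a 4.25-fold higher level in php. MSRB9 was the least even of the 6 probe sets, with a range of 0.72 in wild-type and of 0.76 in php. The difference was 2.83 between the arrays numbered I and 1.35 between those numbered II, so its size was uneven. With 1 array left out it was between 1.71 and 2.47.

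**Figure D2:**
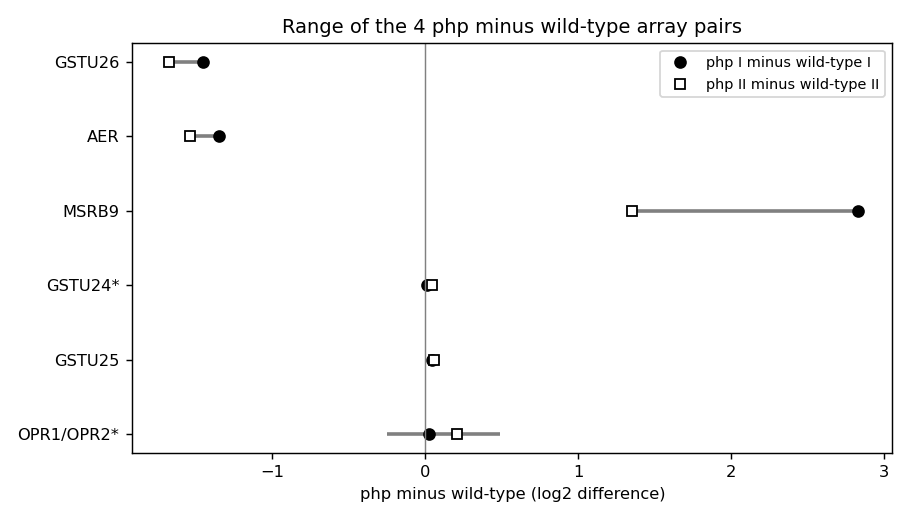
Difference between php and wild-type (x axis, log2) for each of the 6 probe sets, with the grey bar spanning all 4 pairs of a php and a wild-type array, the filled circle for the arrays numbered I and the open square for those numbered II. The bars of GSTU26 (-1.69 to -1.43) and AER (-1.53 to -1.34) are short, the bar of MSRB9 runs from 1.35 to 2.83, and that of OPR1/OPR2 spans 0.

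OPR1 and OPR2 are flavin-dependent reductases of enones related to the jasmonate precursor, while the jasmonate pathway itself runs through OPR3. Their shared probe set was at 9.94 and 10.22 in wild-type against 9.97 and 10.43 in php, and its genotypes overlapped. The mean difference of 0.12 was smaller than the spread within a genotype, where array II exceeded array I by 0.28 in wild-type and by 0.46 in php. Its sign was not fixed: without wild-type replicate I the difference was -0.019 and without php replicate II it was -0.11, and it reached 0.35 without php replicate I. The level of OPR1/OPR2 thus differed more between arrays of one genotype than between the genotype means, and an effect of the replicate number was not tested. The suffix s in the identifier of the probe set says that its probes match more than 1 transcript, so OPR1 and OPR2 cannot be told apart.

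GSTU26, AER and MSRB9 had larger differences than nearly all probe sets of like level. Of 727 probe sets within 0.25 log2 units of the mean level of GSTU26, 99.6% had a smaller difference, as did 99.5% of 1221 around AER and 100% of 838 around MSRB9. These shares restate the contrast on which the members were chosen. For GSTU24, GSTU25 and OPR1/OPR2 the share with a smaller difference was 12.5%, 43.6% and 42.2%.

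**Figure D3:**
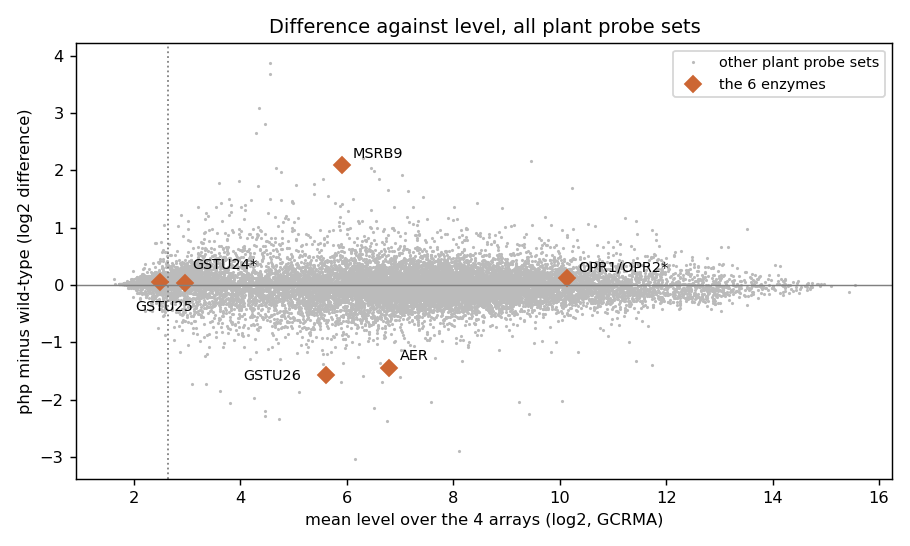
Difference between php and wild-type (y axis, log2) against mean level over the 4 arrays (x axis, log2) for all plant probe sets in grey, with the 6 enzymes as orange diamonds. The dotted line is the dim limit of 2.64. MSRB9 lies at 2.09, GSTU26 and AER at -1.56 and -1.44, and the other 3 on the main band.

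Some control probe sets also differed between genotypes, and their part in these differences was not tested. The 18 probe sets of bacterial transcripts added at hybridisation all had higher levels on each php array, the median difference being 0.35. The 25S rRNA control was higher in php by 1.18 and the 5S rRNA control by 1.09. For the poly(A) spike-ins, with 24 probe sets, the median difference was -0.084.

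All of the loci stand in or beside rows of related genes. For the glutathione S-transferases and the OPR1/OPR2 probe set, this is contained in the choice of members. GSTU24, GSTU25 and GSTU26 are consecutive gene models. AER lies between AT5G16960 and AT5G16980, with AT5G16990 and AT5G17000 beyond, all 4 taken as alkenal reductase relatives. MSRB9 follows MSRB7 and MSRB8 and precedes MSRB2, and OPR1 is followed by OPR2. Close relatives can share probes, and the annotation used here does not say which probe sets do so, apart from that suffix.

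Around AER, 3 of the 4 relatives had a probe set named by the annotation. AT5G16990 was at 8.51 and 8.29 in wild-type against 8.18 and 8.01 in php, a difference of -0.31 (SE 0.12, 95% confidence interval -0.63 to 0.013) that did not pass the test (limma adjusted p = 0.216). AT5G16980, just past AER, was at 3.0 and 2.78 against 2.94 and 2.91 and overlapped between genotypes, with a difference of 0.039 (SE 0.091, limma adjusted p = 0.817). AT5G16960, on the other side of AER, was at the floor, at 2.45 to 2.54 on the 4 arrays. The measured neighbours of AER thus differed by no more than 0.31 in size, against -1.44 for AER. The difference between AER and its neighbours was not tested.

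The relatives next to MSRB9, MSRB7, MSRB8 and MSRB2, were not analysed here. Of the 10 other gene models within 5 of MSRB9, 6 had a probe set named by the annotation and 4 lay above the dim limit. AT4G21870, singled out after its values were seen, was at 7.64 and 7.76 in wild-type against 8.52 and 8.31 in php. Its groups did not overlap, but its difference of 0.72 (SE 0.11) did not pass (limma adjusted p = 0.096). On the far side of GSTU24, AT1G17160, also singled out after its values were seen, was at 7.80 and 7.77 against 7.40 and 7.28, which is -0.44 (SE 0.080, limma adjusted p = 0.111). Around the glutathione S-transferase row, AER, MSRB9 and OPR1, the neighbours above the dim limit numbered 4, 6, 4 and 4. In each region limma called 0 of them, with 1, 0, 1 and 0 at an unadjusted p under 0.05. Among the 15922 tested on the array, the matching shares were 0.0314% called and 24.2% before adjustment. With so few neighbours, nothing is read from these counts. Near OPR1, AT1G76640, also chosen after its values were seen, had the largest difference of these neighbours, 1.36 (limma adjusted p = 0.377), from 2.52 and 2.51 in wild-type against 5.06 and 2.70 in php. It rested on 1 array, being 0.18 without php replicate I. The calmodulin-like gene CML38, in the same stretch, again chosen after its values were seen, was at 5.97 and 8.48 in wild-type against 6.77 and 9.53 in php, higher on the arrays numbered II in both genotypes, as OPR1/OPR2 was.

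**Figure D4:**
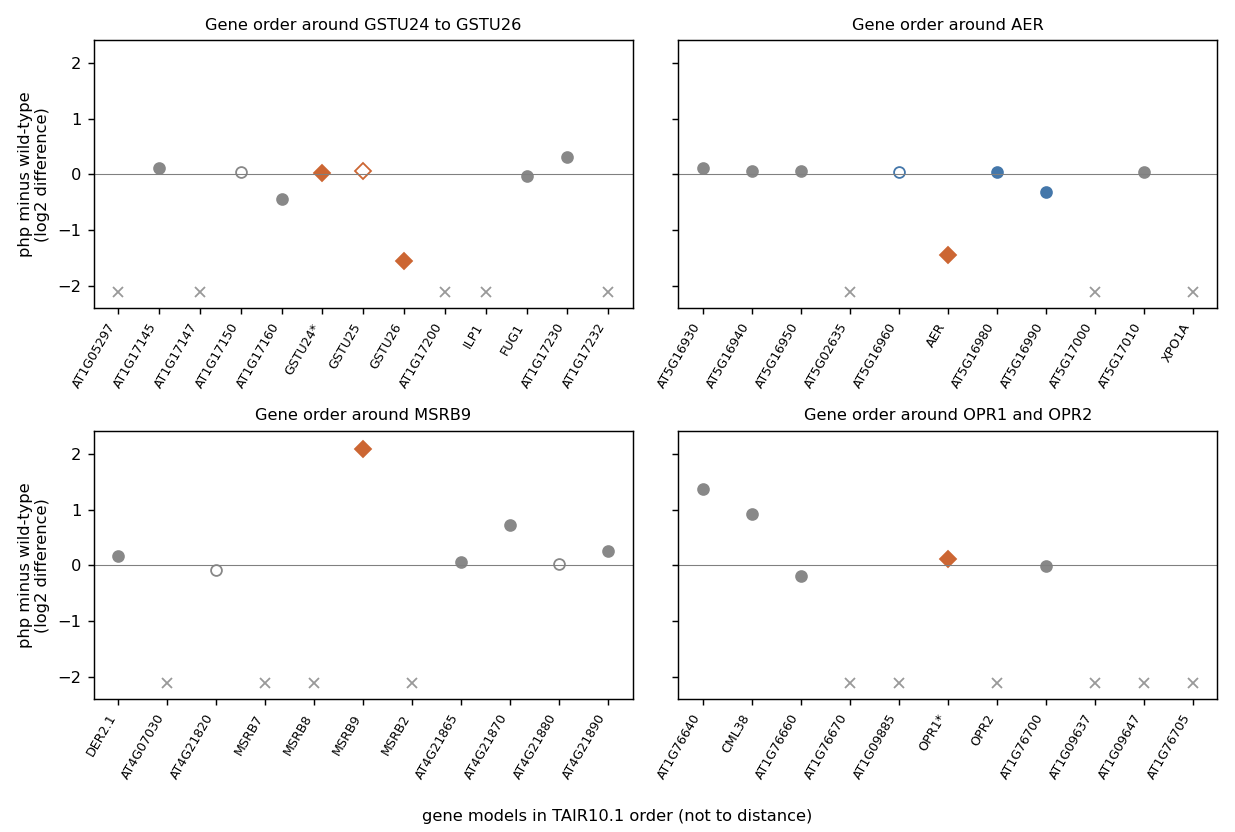
Difference between php and wild-type (y axis, log2) along the TAIR10.1 gene order around the glutathione S-transferase row, AER, MSRB9 and OPR1 (x axis, gene models in order, not to distance). Orange diamonds are the 6 members, blue points relatives of the same family, grey points other genes, open symbols probe sets under the dim limit, crosses at the bottom gene models not analysed here, and an asterisk a name that rests on the choice of members. GSTU26, AER and MSRB9 differ by -1.56, -1.44 and 2.09, and the other measured gene models in their panels by -0.44 to 0.72.

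Across all 15922 probe sets tested, limma called 5 at an adjusted p under 0.05, which is 0.0314%. For the rest of the pathway, 10 lists of detoxification and redox genes were drawn up. They hold 138 loci, of which 40 were matched to a probe set named by the platform annotation, so most of the pathway was not covered. In 8 of the lists there were 25 tested genes beside the 6 members, and 0 of the 25 passed limma's test over all probe sets. At an unadjusted p under 0.05 there were 7 of the 25, which is 28%, near the 24.2% of all probe sets. Of the 25 genes, 15 had lower and 10 higher means in php, with a median difference of -0.074, where the median over all probe sets tested was 0.0058.

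The tau class, a plant-specific class of glutathione S-transferases to which GSTU26 belongs, has 28 loci in the gene annotation. Of these, 11 were matched to a probe set named by the platform annotation, which lists 14016 of the 22810 probe sets. Other loci of the class may have probe sets without a name, as the one taken as GSTU24. Besides GSTU26 and GSTU25, 5 of the other 9 were below the dim limit and 4 were tested. GSTU16 was at 7.57 and 7.33 in wild-type against 7.33 and 7.13 in php, a difference of -0.22 (limma adjusted p = 0.375), and GSTU27 differed by -0.15 (limma adjusted p = 0.296). GSTU20, at 12.47 to 12.61 on the 4 arrays, differed by 0.0065. The 4 tested genes ranged from -0.22 to 0.0065 with a median of -0.11, against -1.56 for GSTU26. With 1 array left out, that median ran from -0.056 (wild-type replicate I) to -0.22 (php replicate I), and GSTU16 from -0.095 (wild-type replicate I) to -0.34 (wild-type replicate II). The difference between GSTU26 and its class was not tested. Of the other classes, GSTL3 of the lambda class differed by 0.049 and GSTF4 of the phi class by 0.038, and GSTF4 varied widely within genotypes, at 5.46 and 4.94 against 5.60 and 4.88.

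Of the 4 tested methionine sulfoxide reductases beside MSRB9, 2 had higher and 2 had lower means in php. MSRB5 was at 9.62 and 9.88 in wild-type against 10.52 and 10.26 in php, a difference of 0.64 (SE 0.14, limma adjusted p = 0.119). MSRB3 was at 7.16 and 7.21 against 6.79 and 6.87, and differed by -0.35 (SE 0.085, limma adjusted p = 0.135). Neither pair of groups overlapped and neither gene passed. MSRB6 differed by 0.079 and MSRA5, a reductase of the A type, by -0.074. These 4 genes had a median difference of 0.0024, which turned to -0.034 when wild-type replicate I was left out and to -0.069 when php replicate I was. As with MSRB9, the php values of MSRB5, MSRB6 and MSRA5 were higher on array I and their wild-type values higher on array II. MSRB3 did not have this order.

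Outside the row around AER, AT1G65560, of the alkenal reductase list, was at 5.73 and 5.92 in wild-type against 5.49 and 5.55 in php, a difference of -0.30 (limma adjusted p = 0.211). The list had 4 tested genes beside AER and a median difference of -0.13. With 1 array left out, that median ran from -0.025 (wild-type replicate I) to -0.145 (wild-type replicate II). Of the genes of the list, 3 beside AER were below the dim limit.

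AT4G01870, listed among genes that respond to electrophiles, had the largest difference of the 25. It was at 5.10 and 5.17 in wild-type against 3.86 and 4.25 in php, lower on both php arrays, with a difference of -1.08 (SE 0.16, 95% confidence interval -1.51 to -0.64) that did not pass (limma adjusted p = 0.096). NQR, an NADPH:quinone oxidoreductase, differed by -0.19 (limma adjusted p = 0.192), and the glucosyltransferase gene UGT73B5 was near the floor, at 2.75 to 2.90. Of the 4 tested genes of this list, 2 had lower means in php and the median difference was -0.083. The 2 with higher means were UGT73B5 and AT2G04070, and AT2G04070 was also near the floor, at 2.63 to 2.68.

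Enzymes of the glutathione, ascorbate and thioredoxin cycles differed by less. GR1, a glutathione reductase, was at 9.25 and 9.28 in wild-type against 9.0 and 8.95 in php, a difference of -0.29 (SE 0.055, limma adjusted p = 0.114). SAPX, the stromal ascorbate peroxidase, differed by -0.25 (SE 0.052, limma adjusted p = 0.115) and NTRC, the plastid NADPH-thioredoxin reductase, by -0.27 (SE 0.075, limma adjusted p = 0.155). In the same lists ATMDAR2, a monodehydroascorbate reductase, was higher on both php arrays by 0.14 (limma adjusted p = 0.284), and TAPX, AT3G11630 and the glutathione reductase gene GR differed by -0.11, -0.071 and -0.063. None of these 7 genes passed limma's test, which 0.0314% of all probe sets tested did. Of the 7, 3 had an unadjusted p under 0.05, against 24.2% of all probe sets tested, and nothing is read from so few genes. In the glutathione, antioxidant and thioredoxin lists, 2 of 12, 4 of 21 and 1 of 5 loci had a named probe set. The antioxidant list had 3 lower and 1 higher mean among its 4 tested genes, with a median difference of -0.093, and both tested genes of the glutathione list had lower means. The oxophytodienoate reductase list and the list of regulators had no probe set named by the annotation and were not analysed here beyond the OPR1/OPR2 probe set.

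**Figure D5:**
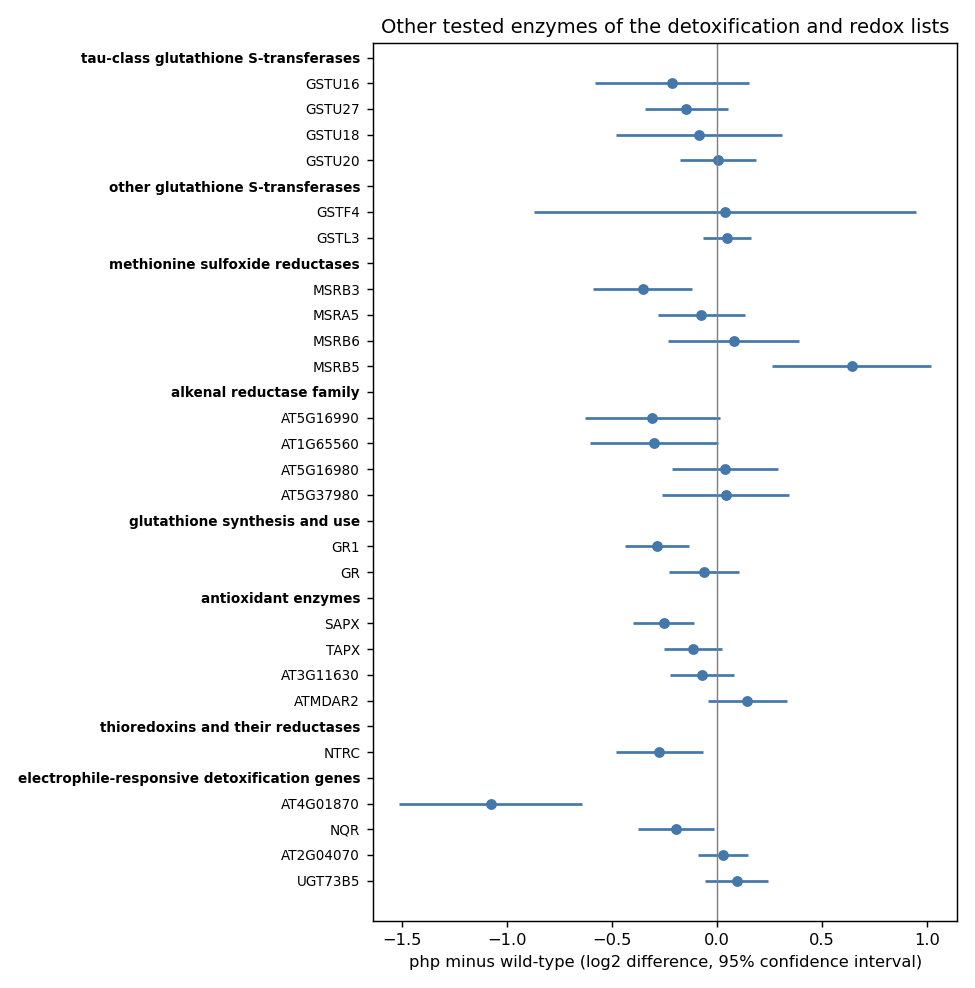
Difference between php and wild-type (x axis, log2) with 95% confidence intervals from limma for the 25 tested genes of the lists, the 6 members left out. Most genes lie close to 0, AT4G01870 at -1.08 and MSRB5 at 0.64 lie farther out, and 0 passed the test over all probe sets.

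The named probe sets whose profile over the 4 arrays was most like that of a member were found by the Euclidean distance between deviations from their own means, over 8849 probe sets (8850 for GSTU25). The nearest to GSTU26 was AER, at 0.22 log2 units, followed by AT5G07870 at 0.25 and AT3G05730 at 0.31. The nearest to AER was AT3G05730 at 0.10, followed by GSTU26 and AT5G03350, both at 0.22. AT3G05730 was at 12.42 and 12.44 in wild-type against 11.17 and 10.91 in php, a difference of -1.39 beside the -1.44 of AER. Nearness over 2 arrays against 2 is set mostly by the php minus wild-type difference on which GSTU26 and AER were chosen, so it restates that choice.

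MSRB9 had no such close match. AT1G72140 and AT5G26260 were nearest, both at 0.68, followed by WES1, an enzyme gene of auxin conjugation, at 0.84. AT1G72140 was at 4.15 and 4.2 in wild-type against 6.55 and 5.31 in php. In these 3 genes, as in MSRB9, php array I was the highest of the 4. For GSTU25, at the floor, the nearest were AT3G54390, AT5G11640 and AT1G52510, at 0.0036, 0.0077 and 0.0080, all with php arrays higher by 0.051 to 0.058. Such distances describe 4 arrays and say nothing of shared function or control.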

How the data were processed

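The deposited table holds log2 expression values per probe set for 4 arrays. The authors made these log2 values with GCRMA background correction and normalisation, per the series' design text. MAS5 is named in the submitters' processing notes with no role and no version. The values were used as deposited. Names came from the platform annotation, matched to RefSeq loci of assembly TAIR10.1 (13436 probe sets), which was used for names and gene order. Of 22746 plant probe sets, the 6824 with a mean up to 2.64 were left out as dim. The other 15922 were tested with limma 3.58.1 in R 4.3.3 (lmFit, eBayes with trend, genotype only, two-sided, Benjamini-Hochberg), with 2 residual and 1.98 prior degrees of freedom. The fit was tested on simulated data. Their noise was independent between arrays and drawn from the fitted variances, so those assumptions were not checked. With 2 arrays against 2, the smallest two-sided p of an exact permutation test is 0.333. The number of arrays limits the precision, and p-values measure the spread between these arrays only. Where a gene had several probe sets the brightest was taken.

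The members and lists were chosen with earlier results of these data known. Named in the text are the 6 members, measured relatives within 5 gene models of them, up to 4 genes per list at an unadjusted p under 0.05 or else the 2 with the largest difference, and the 3 nearest profiles. Other genes of the lists, named to complete them, and 3 neighbours stand outside this rule. Alternatives were other dim filters, no variance trend, quantile normalisation, median centring, each array left out in turn, a replicate block, averaging probe sets per gene, and calling at an unadjusted p with 2-fold. Matplotlib 3.10.9 under Python 3.11.15 drew the figures. No sequence was used.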

Additional observations from a re-analysis of the deposited data

Results flagged for a closer look

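Of the control probe sets, which no comparison of genotypes used, the rRNA controls and the hybridisation spike-ins were higher on both php arrays than on both wild-type arrays. The 24 poly(A) spike-in probe sets were not, with 0 of them higher on both php arrays and differences of -0.31 to 0.031. The 25S rRNA control was at 5.40 and 5.50 in wild-type against 6.30 and 6.97 in php, a log2 difference of 1.18. The 5S rRNA control was at 4.38 and 4.09 against 5.05 and 5.59, a difference of 1.09. The 18 hybridisation spike-in probe sets differed by a median of 0.35, with a range of 0.22 to 0.51. The part of these shifts in the differences of GSTU26, AER and MSRB9 was not tested. Groups of 2 arrays are too small to look for single outlying arrays.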

How the results depend on the processing

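The differences of GSTU26, AER and MSRB9 kept their sign and moved by less than 1.5 times under quantile normalisation and median centring. With any 1 array left out they also moved by less than 1.5 times. Their genotypes did not overlap, so leaving out 1 array could not turn a sign. The 3 were chosen on this contrast, and nothing is read from the signs. Under quantile normalisation GSTU24 was at -0.062, GSTU25 at -0.0056, AT5G16960 at -0.011 and AT5G16980 at -0.056, in place of small positive differences, and under median centring GSTU24 was at 0.071 and GSTU25 at 0.095. That centring moves the median difference of all plant probe sets from 0.032 to 0.072. Leaving out 1 array gave OPR1/OPR2 -0.11 to 0.35, with -0.019 without wild-type replicate I. It gave AT5G16980 -0.070 to 0.15 and GSTF4 -0.33 to 0.40. The median of the tau class was 0.023 and that of the alkenal reductase list 0.041 when dim probe sets were kept. Those medians took in 5 and 3 genes below the dim limit, with differences of 0.023 to 0.062 and of 0.041 to 0.11. The electrophile list moved to -0.019 with dim probe sets kept and to -0.19 with the lowest 50% left out, and the alkenal reductase list to -0.30 there, where 1 and 2 genes remained. The median of the methionine sulfoxide reductases ran from -0.069 to 0.074 with 1 array left out. The cause of these reversals was not tested.

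The count of 5 called probe sets, 1 higher and 4 lower, was 0 without the dim filter (8020 at an unadjusted p under 0.05). It was 21 with the lowest 50% left out (8 higher and 13 lower), 9 with median centring and 122 by unadjusted p with 2-fold. Fits with 1 array left out keep a single array of a genotype, so no count is given for them. With the replicate number as a block limma called 0 (4311 unadjusted). The block leaves fewer residual degrees of freedom than the main fit, so fewer calls can follow from that alone. Replicate I minus II correlated at 0.518 between genotypes, across probe sets, but the labels do not say that the numbers pair the samples.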
